A study of Homo sapiens with 8 samples.

Results

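The E2F transcription factors and the retinoblastoma (pocket) proteins that bind them were described in HCT116 and HT29 cells after knockdown of 3 proteins of the large ribosomal subunit. The genes were taken by symbol from families named with earlier results of these data known: the activator E2Fs E2F1, E2F2 and E2F3, the repressor E2Fs E2F4, E2F7 and E2F8, the dimer partner TFDP1, and the pocket proteins RB1, RBL1 and RBL2. These are 10 of the 19124 genes listed in each library, and all 10 passed the filter on low values. HCT116 and HT29 are established cell lines from human colorectal cancers. Cells of each line received a negative control siRNA (NC) or an siRNA against RPL9, RPL17 or RPL27 at 15 nM with a lipid reagent, and total RNA was harvested 48 h later. There was 1 library for each of the 4 siRNAs in each of the 2 lines, 8 in all, and no other genotype or treatment is given. The design text names 2 siRNAs, whereas the sample labels name 4. No siRNA was repeated within a line, so a value within a line has no error of its own, and in the tests of an siRNA the lines serve as replicates.

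An E2F binds DNA at promoters of genes for DNA replication and cell cycle entry, in most members as a dimer with a DP protein such as the product of TFDP1. Pocket proteins hold E2Fs inactive or turn them into repressors until cyclin D with CDK4 or CDK6, and then cyclin E with CDK2, phosphorylate them. E2F7 and E2F8 are atypical: they bind DNA without a DP partner, are not held by pocket proteins, and repress, and several genes of the family are themselves E2F targets.

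Short windows upstream of the start site are shown for the 5 genes of the family in whose promoter window an E2F word was found. A window of 300 bases per start site (250 before and 50 after) was taken from RefSeq on GRCh38.p14, which is not the build the reads were aligned to, and was searched on both strands for TTTCCCGC, TTTCGCGC, TTTGCCGC and TTTGGCGC. Windows were found for 9 of the 10 genes (E2F8 was the other), and for 8 of them the window lay at the outer end of the gene. Of these 8, 5 held a word. Counted by window, with inner start sites kept, 5 of the 11 windows of the family held one (45.5%). The same count gave 3.32% of all 35116 windows and 4.64% of the 15599 windows of tested genes. The 120 bases before the start site are printed 5′ to 3′ on the gene's strand, with the words in capitals. A match describes the letters and is not evidence of binding. E2F1 lies on the minus strand at chr20:33686386-33686505, E2F2 on the minus strand at chr1:23531234-23531353, E2F3 on the plus strand at chr6:20401759-20401878, TFDP1 on the plus strand at chr13:113584633-113584752 and RBL1 on the minus strand at chr20:37095998-37096117.
E2F1: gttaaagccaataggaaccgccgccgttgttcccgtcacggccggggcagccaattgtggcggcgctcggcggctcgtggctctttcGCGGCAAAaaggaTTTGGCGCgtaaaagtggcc
E2F2: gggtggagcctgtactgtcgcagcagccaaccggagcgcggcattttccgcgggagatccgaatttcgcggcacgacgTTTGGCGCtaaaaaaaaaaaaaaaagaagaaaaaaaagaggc
E2F3: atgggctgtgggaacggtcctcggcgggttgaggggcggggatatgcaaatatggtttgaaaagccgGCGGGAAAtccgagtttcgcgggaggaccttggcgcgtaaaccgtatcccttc
TFDP1: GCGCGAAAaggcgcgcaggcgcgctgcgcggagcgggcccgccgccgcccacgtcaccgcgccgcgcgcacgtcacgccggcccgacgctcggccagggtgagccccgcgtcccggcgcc
RBL1: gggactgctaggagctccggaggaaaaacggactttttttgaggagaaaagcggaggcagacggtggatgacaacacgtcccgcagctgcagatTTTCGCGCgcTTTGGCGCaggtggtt
In E2F1 the pair of words lay at -33 to -26 and -20 to -13 relative to the start site, and in RBL1 at -26 to -19 and -16 to -9, so each gene carried 2 words within a few bases of each other. The single words lay at -42 to -35 in E2F2, at -53 to -46 in E2F3 and at -120 to -113 in TFDP1. No word was found in the windows of E2F4, E2F7 and RBL2, which says only that these letters are not in those windows. The windows of 30 E2F target genes of the G1/S transition, listed further on, held a word in 17 of 38 cases (44.7%).

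Values are deposited RPKM, a count of reads scaled to transcript length and library size. Multiplied by transcript length they summed to 21.2 to 21.6 M per library and to 16.9 M in HT29 NC. This is above the ceiling of 1 M that this unit allows per library. Except in the marker sums below, a level was therefore set only against levels of the same gene. Those sums add levels of different genes and are a rough description. The library of HT29 cells with NC siRNA stood apart. Its values, taken against the median of the other 7, correlated with transcript length across 11942 genes (rank correlation -0.58), against 0.014 to 0.15 in the others. The comparisons of the 10 genes with NC in HT29 are therefore also given with the trend on transcript length taken out of each library. The targeted genes were lowest of the 4 libraries in the cells that received their siRNA, at 26.7% to 38.5% of NC in HCT116 and 13.7% to 18.75% in HT29. Of 10 colon epithelial markers 9 had a mean of at least 1 RPKM (CDX1 did not), with summed levels of 19420 to 31260 in HCT116 and 41450 to 48520 in HT29. Summed fibroblast markers were 350 to 428 in HCT116 and 254 to 439 in HT29, endothelial markers 1.05 to 9.67 and 2.64 to 10.9, and leukocyte markers 44.8 to 81.6 and 1865 to 3035. The leukocyte sum of HT29 was mostly LYZ (1844 to 3002), with PTPRC at 0 to 1.87 over the 8 libraries, and the fibroblast sums were mostly COL1A1 (252 to 437), with DCN at 0 to 0.73 and LUM at 0 to 0.17. With the length trend removed, 2 epithelial markers passed as higher in the mean of the RPL siRNAs, the keratins KRT19 (0.90, adjusted p = 0.035) and KRT8 (0.48, adjusted p = 0.042), and neither passed without any 1 of the 6 RPL siRNA libraries. Their part in the results was not tested. As these are bulk samples, fewer cells in a cycle phase and less RNA per cell cannot be told apart.

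**Figure D1:**
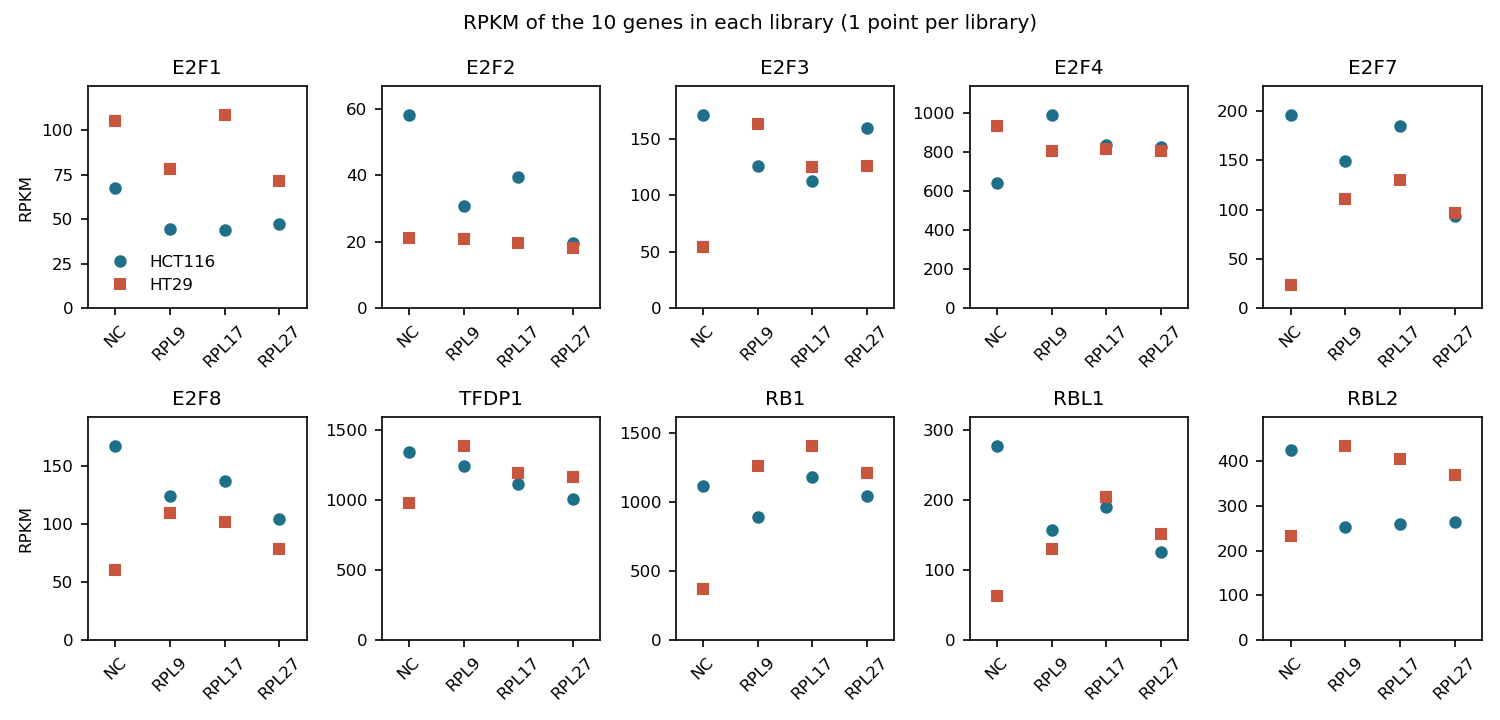
RPKM of the 10 genes, 1 panel per gene, with 1 point per library for the 4 siRNAs in HCT116 and HT29. HT29 NC is the lowest of the HT29 libraries for 7 genes (E2F3, E2F7, E2F8, TFDP1, RB1, RBL1 and RBL2), whereas HCT116 NC is the highest of the HCT116 libraries for 8 genes.

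The comparison of each RPL siRNA with NC within a line asked whether knockdown of a ribosomal protein was accompanied by a shift in this family. In HCT116, 8 of the 10 genes were lower than NC in all 3 RPL siRNA libraries, RB1 lay on both sides, and E2F4 was higher in all 3. Among all 14281 genes tested, 32.4% were lower in all 3 HCT116 libraries and 33.0% higher. In HT29 the picture was the opposite for most of the family: 7 genes were higher than NC in all 3 RPL siRNA libraries (46.6% of all genes tested), E2F2 and E2F4 were lower (32.7% of all genes), and E2F1 lay on both sides. After the length trend was removed, HCT116 again had 8 genes lower and 1 higher, against 31.1% and 34.7% of the 13738 genes with a matched length. HT29 then had 3 genes lower (E2F1, E2F2 and E2F4) and 5 higher (E2F3, E2F7, TFDP1, RB1 and RBL1), against 40.6% and 36.0% of those genes, with E2F8 and RBL2 on both sides. The 3 values of a line share its NC library, so these counts rest on 1 NC library in each line.

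The activator E2Fs drive entry into S phase, and E2F1 is also known for a part in cell death. E2F1 was at 67.8 RPKM with NC siRNA in HCT116 and at 44.6, 44.2 and 47.6 with RPL9, RPL17 and RPL27 siRNA, which is 65.1% to 70.1% of NC. In HT29 it was at 105 with NC and at 78.5, 109 and 71.3 in the same order. The 3 HCT116 libraries thus lay close together below NC, while in HT29 the RPL17 library was level with NC and the other 2 were below it. The mean log2 difference from NC was -0.57 in HCT116 and -0.31 in HT29, and -0.55 and -0.42 without the length trend.

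E2F2 is an activator whose known roles overlap those of E2F1 and E2F3. Its RPKM in HCT116 was 58.2 with NC and 30.9, 39.5 and 19.6 with RPL9, RPL17 and RPL27 siRNA. HT29 cells had 21.3 with NC and 21.0, 19.7 and 18.3. The RPL27 library of HCT116, at 33.6% of NC, was the lowest value relative to NC among all 10 genes, while in HT29 the 4 libraries were nearly level. E2F2 has a long transcript of 5191 bases, and for HT29 genes of 5000 to 6000 bases the median difference from NC was 0.93, with the middle 50% from 0.37 to 1.54. E2F2, at -0.11, lay below that range. Removal of the length trend brought its mean difference in HT29 to -0.95, next to -0.94 in HCT116.

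E2F3, the activator needed for proliferation in many cell types, was at 171 RPKM with NC in HCT116 and at 126, 113 and 159.6 with RPL9, RPL17 and RPL27 siRNA. The HT29 values were 54.7 with NC and 163, 125 and 126. Under the 3 RPL siRNAs the lines overlapped, and only the NC libraries were far apart. The mean difference was -0.38 in HCT116 and 1.31 in HT29, or -0.33 and 0.66 without the length trend. As a class, the 3 activators had a median difference of -0.57 in HCT116 with 9 of 9 values below NC, and of -0.11 in HT29 with 5 of 9 below (-0.42 and 6 of 9 without the length trend).

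**Figure D2:**
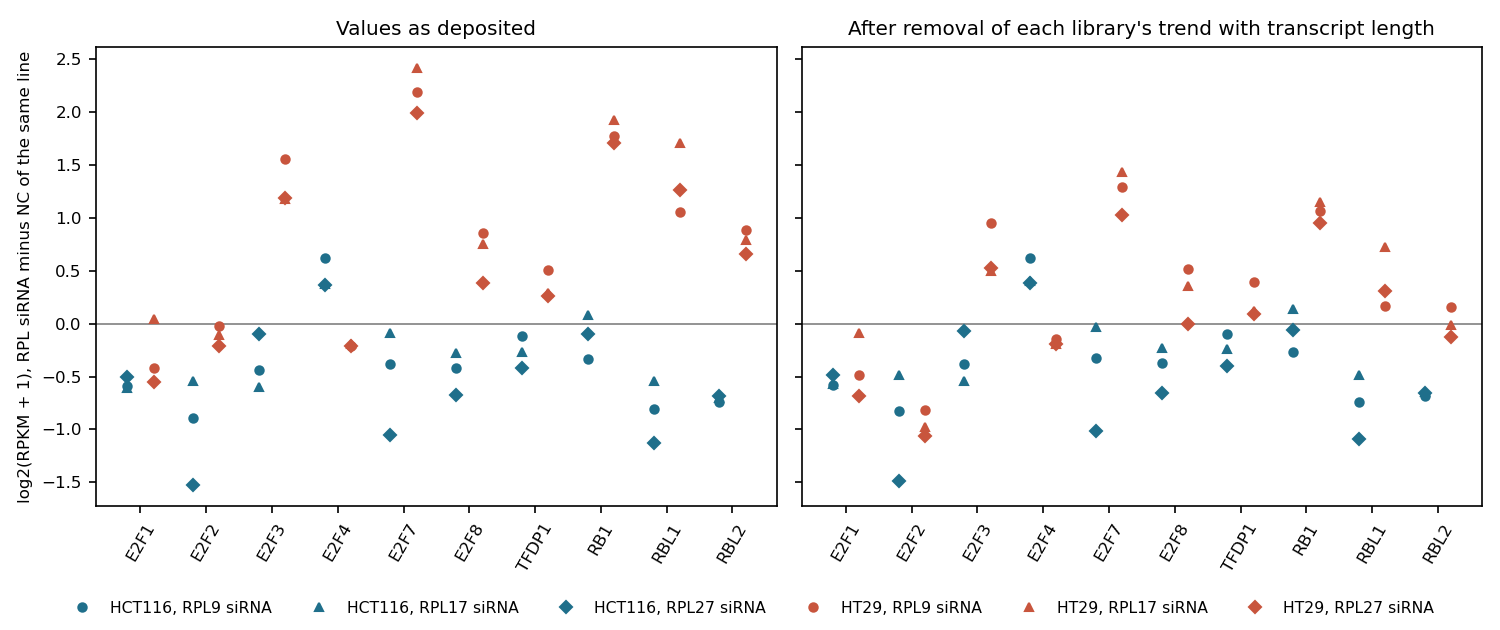
Difference in log2(RPKM + 1) of each RPL siRNA library from the NC library of its line, for the 10 genes, values as deposited (left) and without the trend with transcript length (right); marker shape gives the siRNA and colour the line. E2F2 lies below 0 in all 6 libraries in both panels, E2F4 above 0 in HCT116 and below it in HT29, and RB1 and E2F7 remain above 0 in HT29 after removal of the trend.

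Among the repressors, E2F4 is the main partner of the pocket proteins RBL1 and RBL2 in resting cells. Its RPKM was 640 in HCT116 with NC and 987, 832 and 826 with RPL9, RPL17 and RPL27 siRNA. HT29 cells had 929 with NC and 804, 813 and 802. It was the only gene of the family above NC in all 3 HCT116 libraries, with a mean difference of 0.46, and it was below NC in all 3 HT29 libraries, with -0.20. Its transcript of 2096 bases is short, and the values without the length trend were 0.47 and -0.18.

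E2F7 represses E2F targets from late S phase on. In HCT116 it was at 196 RPKM with NC and at 149.6, 184 and 93.9 with RPL9, RPL17 and RPL27 siRNA. In HT29 it was at 23.5 with NC and at 111, 130.04 and 96.2. The HT29 NC library held the lowest of the 8 values and the 3 RPL siRNA libraries of HT29 stood at 409% to 553% of it, the highest ratio in the family. Its transcript is the longest of the 10 (5740 bases), and its difference of 2.20 in HT29 lay above the middle 50% of genes of similar length. The difference was 1.25 in HT29 and -0.46 in HCT116 with the length trend removed.

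E2F8, which acts with E2F7, was at 167 RPKM in HCT116 with NC and at 124, 137 and 104 with RPL9, RPL17 and RPL27 siRNA. The HT29 values were 60.05 with NC and 109.8, 102 and 78.5. All 3 HCT116 values were below NC and all 3 HT29 values above it, with mean differences of -0.46 and 0.67. Without the length trend the HT29 difference was 0.29, and the RPL27 library lay on the other side of NC at -0.0073. The 3 repressors as a class had a median difference of -0.46 in HCT116 (6 of 9 values below NC) and of 0.67 in HT29 (3 of 9 below), or 0.29 in HT29 with 4 of 9 below without the length trend.

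TFDP1 encodes DP1, the dimer partner of E2F1 to E2F4. Its RPKM was 1342 in HCT116 with NC and 1237, 1110.2 and 1005 with RPL9, RPL17 and RPL27 siRNA. HT29 cells had 973 with NC and 1379, 1191 and 1163. These were among the smaller differences of the family, with means of -0.27 in HCT116 and 0.35 in HT29 (-0.24 and 0.20 without the length trend).

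RB1, the retinoblastoma protein, binds mainly the activator E2Fs. It was at 1118 RPKM in HCT116 with NC and at 889, 1183 and 1046 with RPL9, RPL17 and RPL27 siRNA, so NC lay within the range of the other 3. In HT29 it was at 369 with NC and at 1261, 1402 and 1207. HT29 NC was the lowest of all 8 libraries, and the HT29 libraries with RPL siRNA were all above the HCT116 libraries with RPL siRNA. The mean difference in HT29 was 1.80, above the middle 50% of genes of 4000 to 5000 bases (0.17 to 1.21), and was 1.05 without the length trend; in HCT116 it was -0.12 and -0.07.

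RBL1 (p107) is made in cycling cells and is an E2F target itself. It was at 276 RPKM in HCT116 with NC and at 158, 189 and 126 with RPL9, RPL17 and RPL27 siRNA. In HT29 it was at 62.0 with NC and at 129.8, 204 and 150.5. Each line's NC library was again at the end of its range, in opposite directions, with mean differences of -0.82 in HCT116 and 1.34 in HT29 (-0.77 and 0.40 without the length trend).

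RBL2 (p130) prevails in resting cells. Its RPKM was 425 in HCT116 with NC and 254, 261 and 263 with RPL9, RPL17 and RPL27 siRNA. HT29 cells had 234 with NC and 433, 405 and 369. The 3 siRNAs gave nearly the same value in HCT116, 59.7% to 62.0% of NC. The mean difference was -0.71 in HCT116 and 0.78 in HT29, and in HT29 it was 0.0036 without the length trend, with the 3 libraries on both sides of NC. The pocket proteins had a median difference of -0.71 in HCT116 with 8 of 9 values below NC, and of 1.34 in HT29 with 0 of 9 below (0.40 and 2 of 9 without the length trend).

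**Figure D3:**
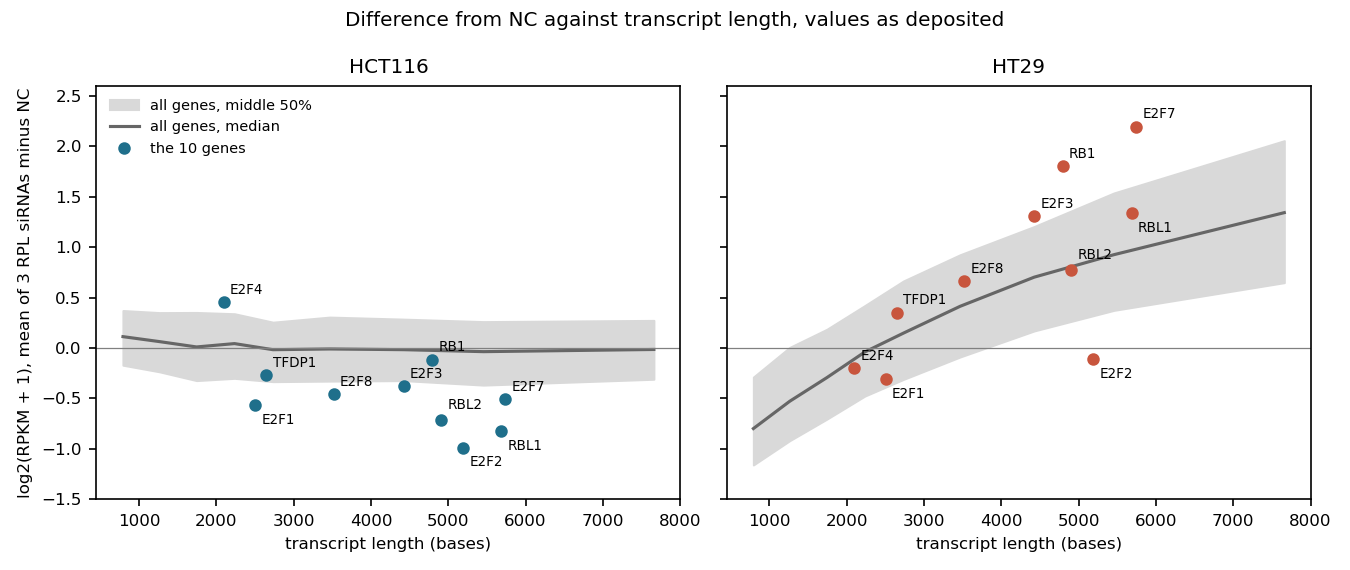
Mean difference of the 3 RPL siRNA libraries from NC in log2(RPKM + 1) against transcript length in bases, for the 10 genes (points) and for all genes in bins of length (line, median; band, middle 50%), in HCT116 and HT29. In HT29 the median climbs from -0.80 in genes under 1000 bases to 1.34 in genes of 6000 bases or more, E2F3, E2F7 and RB1 lie above the band and E2F2 below it; in HCT116 the median stays near 0.

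Over both lines, 0 of the 10 genes passed the test for the 3 RPL siRNAs averaged and set against NC (limma, adjusted p under 0.05, 0 at an unadjusted p under 0.05), where 0.168% of all tested genes did. In that fit 3506 of all 14281 genes had an unadjusted p under 0.05. The lowest value was that of E2F2, with a log2 difference of -0.55 (SE 0.32, adjusted p = 0.31). E2F1 had -0.44 (SE 0.23, adjusted p = 0.27). The highest were those of E2F7, with 0.84 (SE 0.59, adjusted p = 0.39), and RB1, with 0.84 (SE 0.42, adjusted p = 0.26). The median of the 10 genes was 0.11, next to 0.10 over all tested genes. Without the length trend, 0 of the 10 passed, against 5.95% of the genes tested, and 1 had an unadjusted p under 0.05 (3879 of the 13738 genes tested). E2F2 had the lowest adjusted p of the family (-0.95, SE 0.26, adjusted p = 0.078). E2F1 then had -0.48 (SE 0.21, adjusted p = 0.18) and RB1 0.49 (SE 0.25, adjusted p = 0.24).

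For single siRNAs against NC, 0 of the 10 genes passed for RPL9 (0.00700% of all genes), for RPL17 (0.0140%) or for RPL27 (0%). In each, 0 of the 10 had an unadjusted p under 0.05, next to 2913, 2247 and 2390 of all 14281 genes. With the length trend removed, again 0 passed, against 3.22%, 0.357% and 1.73% of the genes tested. An unadjusted p under 0.05 was then found for 1, 0 and 1 of the 10 (3456, 2778 and 2830 of the 13738 genes tested). That 1 gene was E2F2, with -0.82 for RPL9 (SE 0.32, adjusted p = 0.17) and -1.28 for RPL27 (SE 0.32, adjusted p = 0.10), next to -0.74 for RPL17 (SE 0.32, adjusted p = 0.26). These results changed when 1 of the NC libraries was left out. Without HT29 NC, E2F4 passed as higher (0.46, SE 0.11, adjusted p = 0.047) and RBL1 (-0.82, SE 0.19, adjusted p = 0.042) and RBL2 (-0.71, SE 0.13, adjusted p = 0.023) as lower in the mean of the RPL siRNAs, with 12.9% of all genes passing. Without HCT116 NC, 7 genes were higher (E2F3, E2F7, E2F8, TFDP1, RB1, RBL1 and RBL2) and 48.6% of all genes passed. In both fits the difference from NC comes from 1 NC library, which is assumed to vary like the RPL siRNA libraries, and these p values carry no error of NC itself.

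The difference between the lines in the RPL siRNA effect was tested with the 3 RPL siRNAs of a line taken as replicates and 1 NC library in each line. All of its error comes from the spread among the RPL siRNA libraries, and each NC library, HT29 NC included, is assumed to vary like them. Its p values therefore say how far the single NC libraries lay from that spread, and do not separate a difference between the lines from a difference between these NC libraries. As deposited, 6 of the 10 genes passed, against 22.9% of all genes tested. The effect was lower in HCT116 than in HT29 for E2F7 (-2.71, SE 0.51, adjusted p = 0.0089), RBL1 (-2.17, SE 0.43, adjusted p = 0.011), RB1 (-1.92, SE 0.24, adjusted p = 0.0019), E2F3 (-1.69, SE 0.37, adjusted p = 0.015) and RBL2 (-1.49, SE 0.21, adjusted p = 0.0029). It was higher in HCT116 for E2F4 (0.66, SE 0.20, adjusted p = 0.047). Without the length trend only RB1 passed among the 10 (-1.12, SE 0.24, adjusted p = 0.034), against 7.49% of the genes tested. E2F4 had nearly the same difference as before, 0.64 (SE 0.19), with an adjusted p of 0.087, and E2F7 had -1.70 (SE 0.52, adjusted p = 0.088).

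The 6 libraries with an RPL siRNA allow comparisons that leave out NC. Between the lines, with siRNA as a term, 3 of the 10 genes passed, against 22.9% of all genes, and all 3 were higher in HT29. E2F1 was at 45.5 ± 1.84 RPKM in HCT116 and 86.1 ± 19.8 in HT29 (SD over the 3 siRNAs, n = 3), a log2 difference of -0.88 (SE 0.18, adjusted p = 0.022). RBL2 was at 259 ± 5.02 and 402 ± 32.1 (n = 3), a difference of -0.63 (SE 0.090, adjusted p = 0.0070). RB1 was at 1039 ± 147 and 1290.1 ± 101 (n = 3), a difference of -0.32 (SE 0.076, adjusted p = 0.033). For these 3 genes the values of the lines did not overlap. Without the length trend E2F1 (-0.79, adjusted p = 0.022) and RBL2 (-0.57, adjusted p = 0.0090) passed, RB1 did not (-0.26, adjusted p = 0.068), and 26.8% of genes passed. RB1 also failed in each fit that left out 1 of the 6 libraries (adjusted p from 0.062 to 0.10), and E2F1 failed without the RPL9 or the RPL17 library of either line (0.054 to 0.11), while RBL2 passed in all 6. With no filter on low values none of the 3 passed (E2F1 0.11, RB1 0.14, RBL2 0.060). E2F4, at 882 ± 91.4 in HCT116 and 806 ± 6.12 in HT29 (n = 3), did not overlap between lines either but did not pass the test (0.12, SE 0.076, adjusted p = 0.29). The remaining 6 genes overlapped between the lines. The share of all tested genes without overlap was not computed, so the number among the 10 has no background to be read against.

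**Figure D4:**
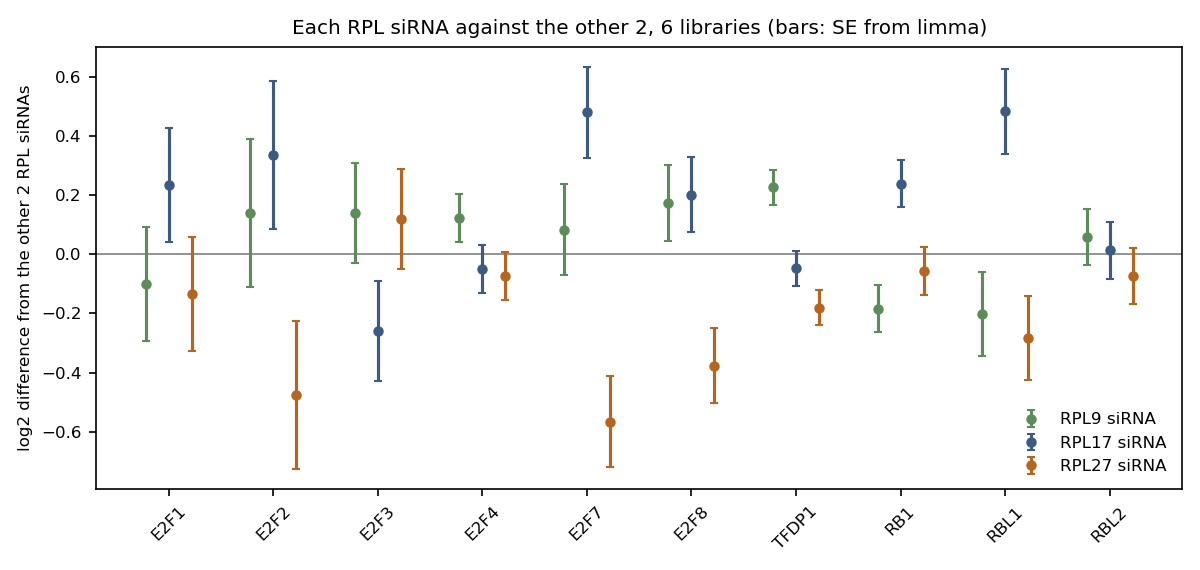
Log2 difference of each RPL siRNA from the mean of the other RPL siRNAs for the 10 genes, over the 6 libraries without NC; bars are the standard errors of the limma fit. RPL27 is below 0 for 9 of the 10 genes, and E2F7, E2F8 and RBL1 are lower with RPL27 and higher with RPL17. The differences of a gene add up to 0, so they are not independent. None of the 10 passed an adjusted p of 0.05.

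Each RPL siRNA was also compared with the other RPL siRNAs over both lines. These comparisons share the same libraries and add up to 0 for each gene, so they are not independent of each other. For RPL27, 9 of the 10 genes were below 0 with a median of -0.16 (all genes -0.0030), 0 passed, and 1.25% of all genes did. An unadjusted p under 0.05 was found for 3 of the 10 and for 2643 of all 14281 genes. The largest differences with RPL27 were those of E2F7 (-0.57, SE 0.15, adjusted p = 0.14), E2F2 (-0.48, SE 0.25, adjusted p = 0.37), E2F8 (-0.38, SE 0.13, adjusted p = 0.20) and RBL1 (-0.28, SE 0.14, adjusted p = 0.36). TFDP1, with -0.18 (SE 0.059, adjusted p = 0.19), was the third of the genes at an unadjusted p under 0.05 beside E2F7 and E2F8. RPL27 gave the lowest of the 3 RPL siRNA libraries in both lines for E2F2, E2F4, E2F7, E2F8 and TFDP1. For RPL17, 7 of the 10 were above 0 with a median of 0.22 (all genes 0.011). Of the 10, 0 passed, against 0.420% of all genes, and 3 had an unadjusted p under 0.05 (2574 of all genes). RBL1 had 0.48 (SE 0.14, adjusted p = 0.17), E2F7 0.48 (SE 0.15, adjusted p = 0.19) and RB1 0.24 (SE 0.080, adjusted p = 0.21), and RPL17 gave the highest of the 3 libraries in both lines for these 3 genes. For RPL9, 0 passed, against 0.707% of all genes, and 1 had an unadjusted p under 0.05 (2914 of all genes). TFDP1 had the lowest adjusted p there (0.23, SE 0.059, adjusted p = 0.12).

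Genes around the family were counted from lists of its known partners and targets. Of 30 E2F target genes of G1/S, which encode the replicative helicase, its loaders, polymerases and nucleotide synthesis enzymes, 29 were below NC in the mean of the RPL siRNAs. Their median was -0.60, against 0.10 over all genes. As deposited, 0 of the 30 passed (limma), and 22 had an unadjusted p under 0.05, next to 3506 of all 14281 genes tested. With the trend removed all 30 were below 0 with a median of -0.70. Of the 30, 17 then fell and 26 had an unadjusted p under 0.05. Of all 13738 genes tested, 447 fell and 3879 had an unadjusted p under 0.05. The count of 17 became 0 without any 1 of the 6 RPL siRNA libraries. TK1, which makes thymidine monophosphate, had -1.46 (SE 0.20, adjusted p = 0.066), and without the length trend it fell by 1.34 (SE 0.16, adjusted p = 0.016). CDT1, a loader of the helicase, had -1.21 (SE 0.26, adjusted p = 0.093) and then fell by 1.34 (SE 0.29, adjusted p = 0.046). At the other end were CHEK1, a checkpoint kinase, with -0.13 (-0.62 in HCT116 and 0.37 in HT29), and POLA1, a subunit of DNA polymerase alpha, with 0.10 (-0.37 and 0.57). Others that fell without the length trend included MCM2, MCM3, MCM4, MCM5, MCM6, MCM7, GINS2, CDC6, CHAF1A, POLA2, EZH2, TYMS, RRM1 and RRM2.

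In HCT116 all 30 targets were below NC in all 3 RPL siRNA libraries (32.4% of all genes), and in HT29 22 were (32.7%). Without the length trend 28 were in HCT116 (31.1% of the genes tested) and 26 in HT29 (40.6%). The direction of the targets in HT29 was thus shared by E2F1, E2F2 and E2F4 after removal of the trend and not by E2F3, E2F7, TFDP1, RB1 or RBL1. Relative to the other RPL siRNAs, all 30 targets were above 0 with RPL17 (median 0.40; 0 passed, 27 at an unadjusted p under 0.05, as were 2574 of all 14281 genes). The comparison with RPL27 shares those libraries, so its sign is not independent of that with RPL17. In it all 30 were below 0 (median -0.30), and 2 passed, next to 1.25% of all genes. The 2 were MCM7, a helicase subunit (-0.55, adjusted p = 0.023), and CDC6, a helicase loader (-0.66, adjusted p = 0.041), which passed in 2 and 1 of the 6 fits that left out a library. RPKM of CDC6 was 994, 534, 699 and 416 in HCT116 with NC, RPL9, RPL17 and RPL27 siRNA, and 807, 536, 619 and 337 in HT29. In both lines NC was thus the highest and RPL27 the lowest, which is the order E2F2 also showed in both lines.

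CDK inhibitors keep pocket proteins unphosphorylated. Of 7 CDK inhibitors, CDKN1A (p21) rose in the mean of the RPL siRNAs, by 2.16 (SE 0.15, adjusted p = 0.022; 2.16 and 0.0031 with the length trend removed), and 0 fell. The call was lost in each of the 6 fits without 1 RPL siRNA library, where the value was 2.12 to 2.19 (adjusted p from 0.22 to 0.25). Its RPKM was 225 with NC in HCT116 and 1195, 958 and 1133 with RPL9, RPL17 and RPL27 siRNA, and 198 with NC in HT29 and 834, 762 and 864. CDKN2B (p15) had 0.52 (adjusted p = 0.41). CDKN2C (p18) had -1.63 (SE 0.32, adjusted p = 0.086) and CDKN1C (p57) -1.63 (SE 0.38, adjusted p = 0.10); without the length trend CDKN2C fell by 1.61 (adjusted p = 0.043), a call lost without any 1 RPL siRNA library or HT29 NC.

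Of 11 G1 cyclins, CDKs and their activators 10 were tested, with a median of -0.10 and 0 that passed in the mean of the RPL siRNAs. Of the 10, 3 had an unadjusted p under 0.05, next to 3506 of all 14281 genes. CDK6, which phosphorylates pocket proteins with a D cyclin, had 2.10 (SE 0.36, adjusted p = 0.076), and CCND1, its cyclin, had 1.32 (SE 0.25, adjusted p = 0.082). CCNA2, a cyclin of S phase and an E2F target, had -0.79 (SE 0.16, adjusted p = 0.090), and CDK2 had -0.49 (SE 0.21, adjusted p = 0.21). Without the length trend CDK6 (2.26, adjusted p = 0.033) and CCND1 (1.04, adjusted p = 0.018) rose and CCNA2 fell (-0.87, adjusted p = 0.022), and 0 of the list passed without any 1 RPL siRNA library. Among the RPL siRNAs, CCND1 was higher with RPL17 than with the others (0.78, adjusted p = 0.030), and CDK6 was lower with RPL27 (-0.83, adjusted p = 0.042). CCND1 passed in 2 and CDK6 in 0 of the 6 fits that left out a library.

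The list of the MuvB core, with which RBL1 and RBL2 form a repressor of cell cycle genes, also held MYB factors and FOXM1. Of its 8 genes 6 were below 0, with a median of -0.26 (-0.30 without the length trend). Of the 8, 0 passed, and 0 had an unadjusted p under 0.05 as deposited. LIN37 had -0.47 (0.27 in HCT116 and -1.22 in HT29) and FOXM1 -0.38 (-0.68 and -0.085). MYBL1 had 0.06 (-0.88 in HCT116 and 1.00 in HT29) and LIN54 0.35 (-0.65 and 1.36). MYBL2, an E2F target, was lower with RPL27 than with the other RPL siRNAs (-0.57, adjusted p = 0.041; in 0 of the 6 fits that left out a library). Of 8 corepressors of pocket proteins 4 were below 0, with a median of -0.05 and 0 that passed (2 at an unadjusted p under 0.05, next to 3506 of all 14281 genes). Without the length trend 5 were below 0 with a median of -0.26, and HDAC2, a histone deacetylase, had the lowest value, -0.85 (adjusted p = 0.15), after -0.17 as deposited. RBBP7, a histone-binding subunit, had -0.64 (adjusted p = 0.085) and fell without the length trend (-0.61, adjusted p = 0.032, lost without any 1 RPL siRNA library). SUV39H1 had -0.39. ARID4A had 0.69 (-0.28 in HCT116 and 1.66 in HT29) and KDM5A 1.23 (-0.0033 and 2.46). Without the length trend ARID4A had 0.23 and KDM5A 0.53. The other E2F and DP subunits tested, E2F5, E2F6 and TFDP2, had log2 differences of 0.05, 0.01 and 0.11 in the mean of the RPL siRNAs. All 3 were higher than NC in all 3 HT29 libraries (46.6% of all genes tested), or 2 without the length trend (36.0%). As deposited, E2F5 (-0.23 in HCT116 and 0.33 in HT29) and E2F6 (-0.33 and 0.34) had opposite signs in the lines. Without the length trend E2F5 had -0.23 and 0.45, and E2F6 had -0.29 and only 0.048.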

How the data were processed

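RNA sequencing libraries were made from total RNA with a TruSeq kit, per the labels' protocols. Per the submitters' processing notes, CASAVA 1.8.2 made the base calls and TopHat2 2.0.9 the alignment to hg19. The authors deposited 1 RPKM value per gene symbol and library; the counting rule and read depth are not given in the sources used here, so no counting interval was computed. Unused columns of sample values numbered 0.

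Values were taken as log2(RPKM + 1), which understates changes of low genes, and the 14281 genes averaging 1 RPKM or more were tested in R 4.3.3 with limma 3.58.1 (trend; two-sided; Benjamini-Hochberg over all tested genes; threshold 0.05). Terms were line and siRNA (3 residual degrees of freedom with 8 libraries, 2 with the 6 RPL siRNA libraries), or line, any RPL siRNA and their interaction (4). With no stated separate cultures, p values measure the spread between these libraries. The length trend was a natural spline with 5 degrees of freedom per library over 13738 genes with a RefSeq transcript length. Alternatives were pseudocounts of 0.1 and 5, no filter or a mean of at least 5 RPKM, quantile normalization, removal of the length trend, and each library left out. The scripts were tested on simulated data.

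All 10 genes were named, and from each list of partners and targets the genes that passed and the 2 lowest and 2 highest in the mean contrast; markers are given as sums, with those that passed. Lists held other E2F and DP subunits, MuvB with MYB and FOXM1, G1 cyclins and CDKs, CDK inhibitors, corepressors, E2F targets and markers of cell types. In the list of E2F targets, 1 gene is counted but not reported here. Genes and lists were chosen with earlier results of these data known. The settings added later were the same alternatives for further comparisons and for genes of the lists that passed.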

Additional observations from a re-analysis of the deposited data

Results flagged for a closer look

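The 8 results below stood out because the RPL siRNA effect differed between HCT116 and HT29, either by the interaction test or because all 3 libraries of one line lay on the other side of NC from all 3 of the other line. Each value is the log2 effect in HCT116 minus that in HT29, from values as deposited, and rests on 1 NC library per line, which the test assumes to vary like the RPL siRNA libraries. A difference between the lines and one between these NC libraries cannot be told apart. By the test, E2F7 (-2.71, adjusted p = 0.0089), RBL1 (-2.17, adjusted p = 0.011), RB1 (-1.92, adjusted p = 0.0019), E2F3 (-1.69, adjusted p = 0.015), RBL2 (-1.49, adjusted p = 0.0029) and E2F4 (0.66, adjusted p = 0.047) passed. The libraries of the lines lay on opposite sides of NC for all of these except RB1. E2F8 (-1.12, adjusted p = 0.064) and TFDP1 (-0.62, adjusted p = 0.081) lay on opposite sides without passing the test. Without the trend with transcript length the values were -1.70 for E2F7, -1.17 for RBL1, -1.12 for RB1, -0.99 for E2F3, -0.66 for RBL2, 0.64 for E2F4, -0.71 for E2F8 and -0.45 for TFDP1, and only RB1 passed (adjusted p = 0.034).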

How the results depend on the processing

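No paired analysis was possible because each line and siRNA has 1 library and the labels give no replicate numbers; the line is a term of the fits. With either NC library left out, the interaction could not be fitted.

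Leaving out 1 library at a time, the number of the 10 genes that passed against NC ran from 0 to 7 in the mean of the RPL siRNAs, from 0 to 7 for RPL9, from 0 to 7 for RPL17 and from 0 to 5 for RPL27; it was above 0 only without HCT116 NC (7, 7, 7 and 5) or HT29 NC (3, 3, 1 and 3). Between the lines the count, 3, was 0 with no filter on low values and 1 to 2 with 1 library left out (1 without the RPL9 or RPL17 library of either line). For the interaction it was 1 with the length trend removed. The count of 0 against the other RPL siRNAs did not change under any alternative run.

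In the mean of the RPL siRNAs, quantile normalization reversed E2F8 (-0.11), TFDP1 (-0.018) and RBL2 (-0.14), and removal of the length trend reversed E2F8 (-0.065), TFDP1 (-0.021), RBL1 (-0.19) and RBL2 (-0.33). Leaving out 1 library at a time, always with the ends at the 2 NC libraries, gave -0.38 to 1.31 for E2F3, -0.20 to 0.46 for E2F4, -0.51 to 2.20 for E2F7, -0.46 to 0.67 for E2F8, -0.27 to 0.35 for TFDP1, -0.12 to 1.80 for RB1, -0.82 to 1.34 for RBL1 and -0.71 to 0.78 for RBL2. E2F1 and E2F2 were below 0 in each of these settings.

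Between the lines, removal of the length trend reversed E2F3 (0.0035) and RBL1 (0.036), and leaving out 1 library gave -0.26 to 0.10 for E2F3 and -0.18 to 0.084 for RBL1. With RPL17 against the other RPL siRNAs, removal of the trend reversed RBL2 (-0.0055), and leaving out 1 library gave -0.060 to 0.53 for E2F1, -0.12 to 0.019 for E2F4 and -0.040 to 0.068 for RBL2. For the interaction, quantile normalization reversed E2F1 (0.20) and removal of the trend reversed E2F2 (0.017). The cause of these changes was not tested.

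Over all tested genes, the count that passed in the mean of the RPL siRNAs, 24, was 10 and 9 with pseudocounts of 0.1 and 5, 6 with no filter, 83 with quantile normalization, 817 with the length trend removed, 6945 without HCT116 NC, 1838 without HT29 NC and 0 without any other library. With the trend removed the counts for RPL9, RPL17 and RPL27 against NC, 1, 2 and 0, were 442, 49 and 237, and that of the interaction, 3266, was 1029. With no filter the counts against the other RPL siRNAs, 101, 60 and 179, were all 0, and that between the lines, 3265, was 768. With a mean of at least 5 RPKM the former were 297, 316 and 382. The median of the E2F targets, -0.60, ran from -0.71 to -0.48 over these alternatives.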

Other observations

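Some genes followed E2F1 or E2F8 across the 8 libraries. With levels centred within each line, the 5 genes most like E2F1 among the 12386 averaging 5 RPKM or more were PIM2, a serine/threonine kinase (r = 0.97), ZNF691 (r = 0.97), LSS, an enzyme of cholesterol synthesis (r = 0.96), HAUS5, a subunit of the spindle augmin complex (r = 0.95), and CHRNA3, a subunit of nicotinic receptors (r = 0.95). The 5 most like E2F8 were ANKRD32 (r = 0.99), PTPLAD1 (r = 0.99), OXR1 (r = 0.98), TOP1, a DNA topoisomerase (r = 0.97), and PPP6R3 (r = 0.97), with transcripts of 2956 to 5905 bases next to 3519 for E2F8. The points share 8 libraries, the HT29 NC library among them, and the values are a description.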
